A study of Cymbidium longibracteatum with 2 samples.

Results

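A group of 278 abundant leaf transcripts stayed within 2-fold between green and yellow leaves of the orchid Cymbidium longibracteatum, and is described here. They are assembled transcripts, called unigenes, and were chosen from 61101 in the table by 2 limits. The mean of the green and yellow values had to reach 300 FPKM, a unit that corrects fragment numbers for transcript length and for the depth of the library. The log2 ratio of yellow to green, computed on FPKM + 1, had to lie between -1 and 1. Of 348 unigenes at that level, 278 (79.9%) met the ratio limit, 40 were at or past 2-fold higher in yellow and 30 were at or past 2-fold lower. The share within 2-fold was 79.8% of the 14337 unigenes that reached FPKM 10 in either library, and 65.0% of the 48181 that reached FPKM 1. Staying within 2-fold was thus about as common among all unigenes of FPKM 10 or more. Levels and ratios of the 278 were therefore fixed in part by the choice and are given as descriptions.

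The green library came from leaves of the parent cultivar 'Longchangsu'. The yellow library came from a clonal variant of it with verge line pattern leaves, labelled a mutant, which was raised from yellowing rhizomes through tissue culture and repeated subculture. No altered gene is named. Plants of both kinds grew for 1 year with days at 25 °C and nights at 20 °C, and the 5 youngest leaves per plant were mixed, with the number of plants not stated. With 1 library per leaf colour no difference was tested and no value has a replicate error. The series title ties the leaf colours to chloroplast formation.

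In a leaf, a small number of transcripts usually takes a large part of the messenger RNA. As general background, many of them encode the machinery of photosynthesis, such as the small subunit of Rubisco, which fixes carbon dioxide, and the chlorophyll-binding antenna proteins that collect light. These proteins are encoded in the nucleus, made in the cytosol and imported into the chloroplast. Others serve every cell, such as ribosomal proteins, ubiquitin and translation factors. The identifiers carry no gene names, so which of the 278 have such a role is not known, and the leaf label could not be set against marker genes. In bulk RNA, fewer cells of a type and less RNA per cell cannot be told apart.

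High values in both colours follow from the choice, since the 2 limits together set a floor in each library. The lowest value was 228 FPKM in green and 216 in yellow, the median was 490 and 485, and the highest was 11729 and 6520. By abundance among all 61101 unigenes, the lowest placed member ranked 497 in green and 603 in yellow. A level of 300 FPKM was reached in both libraries by 230 members, in green alone by 22 and in yellow alone by 26. Members made up 40 of the 50 most abundant unigenes of the green library and 39 of the 50 of the yellow library. These counts are near the members' share of all 348 unigenes of mean FPKM 300 or more, 79.9%.

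**Figure D1:**
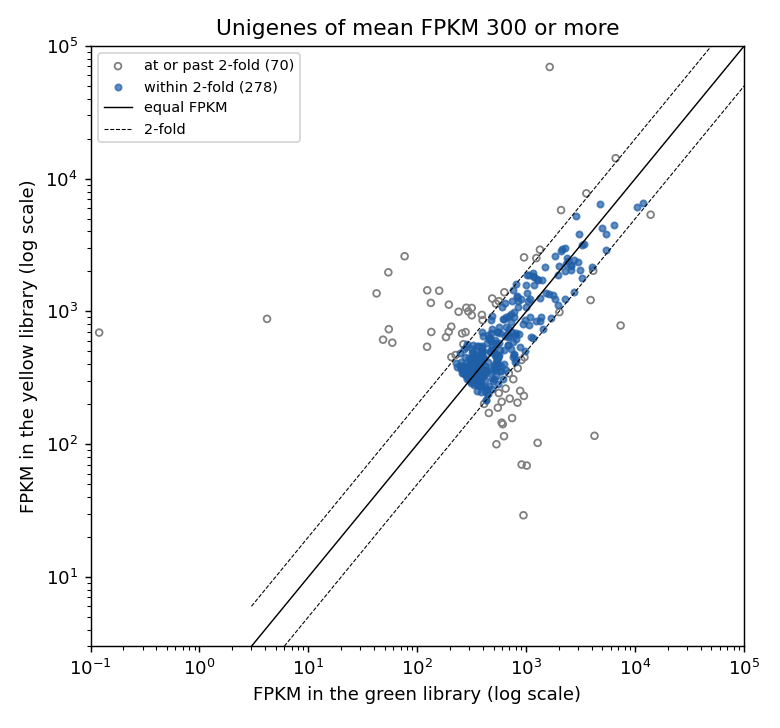
FPKM in the green library (x axis, log scale) and in the yellow library (y axis, log scale) for the 348 unigenes of mean FPKM 300 or more, 1 library per colour. Filled points are the 278 within 2-fold, between the dashed lines. Open points are the 70 at or past 2-fold, 1 of which stands at 69423 FPKM in yellow.

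The 278 members, 0.455% of the table, took a large part of the summed FPKM. Their share was 26.6% in green and 22.6% in yellow. Their summed FPKM was 252148 in green and 241669 in yellow, a difference of -10479. The sum over the whole table was 947801 in green and 1069855 in yellow, so the members' lower share in yellow went with a slightly smaller sum of their own and a larger sum of the rest. All 348 unigenes of mean FPKM 300 or more together took 34.9% of green and 36.9% of yellow. The 70 of them at or past 2-fold, which the ratio limit leaves out, took 8.25% and 14.3%. With every unigene counted, the lower share in yellow thus holds for the members and not for the 348 together. A single unigene outside the ratio limits, at 1639 FPKM in green and 69423 in yellow, made up 67784 of the excess of 122055 in the yellow sum. Without it the members' share was 26.6% in green and 24.2% in yellow. That unigene is among the 348, whose own sum was higher in yellow by 64662 FPKM, less than its excess. The higher share of the 348 in yellow thus rests on that unigene.

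The size of the gap in share varied with the scaling when the limits were applied again. With both libraries rescaled to the same sum (TPM) and the limits applied again, 266 unigenes met them, with 23.9% of green and 23.6% of yellow. With upper-quartile scaling 223 met them, with 21.1% of green and 21.6% of yellow, so the order turned. With trimmed-mean scaling 264 met them, with 25.9% of green and 22.3% of yellow, a gap near that of the deposited values. With the most abundant yellow unigene left out and the sums made equal, 271 met them, with 25.9% of green and 24.0% of yellow. The share of the unigenes chosen anew was thus lower in yellow under 3 of these 4 scalings, by very little under TPM.

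The members' lower summed FPKM in yellow came from the highest levels. In the 29 members of mean FPKM 2000 or more, the sum was 107677 in green and 91548 in yellow, 11.4% and 8.56% of the libraries. In the 34 members from 1000 to 2000 the order was the other way, with 43514 in green and 47823 in yellow. The 71 members from 500 to 1000 summed to 47155 and 48073, and the 144 members from 300 to 500 to 53802 and 54226. In FPKM, the highest range alone was lower in yellow. As a share of the library, all 4 ranges were lower in yellow, with a change of -2.80 percentage points at 2000 or more and smaller changes elsewhere.

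**Figure D2:**
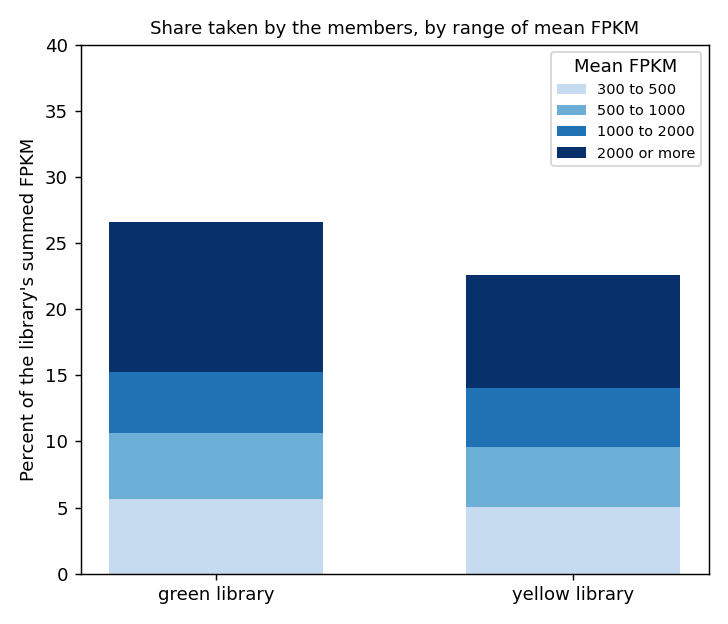
Percent of each library's summed FPKM (y axis) taken by the 278 members in the green and the yellow library, stacked by the member's mean FPKM, 1 library per colour. The darkest block, 2000 FPKM or more, is 11.4% in green and 8.56% in yellow, while the other 3 blocks differ less.

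The 10 most abundant members held 58287 FPKM in green and 46798 in yellow, and 7 of them were lower in yellow. They made up 23.1% of the members' sum in green and 19.4% in yellow. The other 268 members summed to 193861 in green and 194871 in yellow. In summed FPKM, the lower value in yellow thus came from the top 10. As a share of the library both parts were lower in yellow. The top 10 took 6.15% of green and 4.37% of yellow, and the other 268 took 20.5% of green and 18.2% of yellow.

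Unigene c25809_g1 led the members in both libraries, with 11729 FPKM in green and 6520 in yellow. It was the second most abundant of all unigenes in green and 1.80-fold lower in yellow. Unigene c23312_g1 had 10459 FPKM in green and 6081 in yellow, 1.72-fold lower. These 2 unigenes alone accounted for -9587 of the members' difference in sum. Without them the other 276 members summed to 229960 in green and 229068 in yellow.

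The next members did not share one direction. Unigene c29674_g1 had 4709 FPKM in green and 6463 in yellow, 1.37-fold higher in yellow. Unigene c13982_g1 had 6336 FPKM in green and 4496 in yellow. Unigene c32482_g1 had 5443 in green and 3812 in yellow. The latter pair were lower in yellow by nearly the same factor, 1.41 for c13982_g1 and 1.43 for c32482_g1. Unigene c30898_g3 was closer to equal, at 4935 FPKM in green and 4225 in yellow.

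Unigenes c24651_g1 and c29305_g1 were the furthest apart by ratio among the top 10, in opposite directions. Unigene c24651_g1 had 5391 FPKM in green and 2921 in yellow, 1.85-fold lower in yellow. Unigene c29305_g1 had 2833 in green and 5211 in yellow, 1.84-fold higher in yellow. Among all unigenes c24651_g1 ranked 8 in green and 18 in yellow, and c29305_g1 ranked 22 in green and 9 in yellow, so they nearly exchanged places. Unigene c28984_g2 had 3069 FPKM in green and 3844 in yellow. Unigene c20970_g1 was nearly equal, with 3382 in green and 3225 in yellow.

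**Figure D3:**
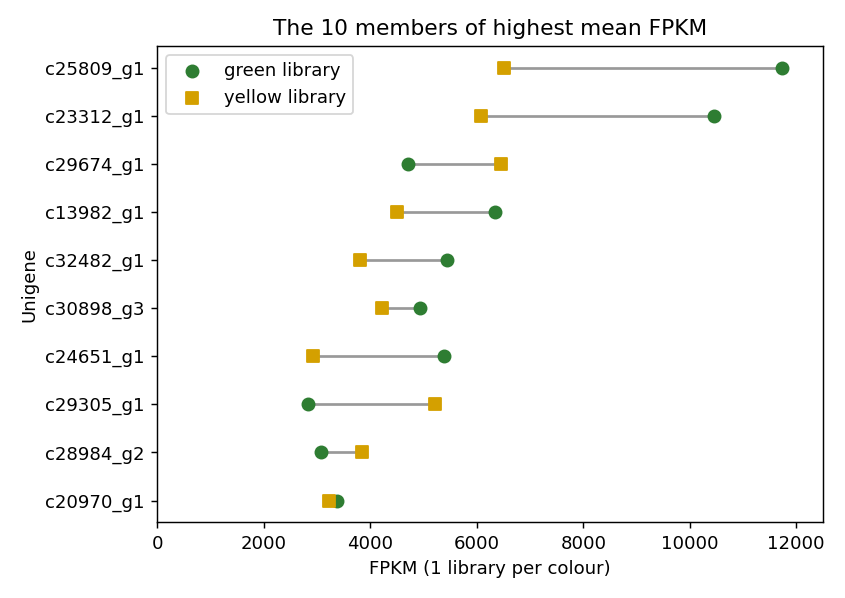
FPKM (x axis) of the 10 members of highest mean FPKM (y axis, identifiers as deposited) in the green library (circles) and the yellow library (squares), 1 library per colour. In 7 of the 10 the square lies to the left of the circle, with the widest gaps for c25809_g1 and c23312_g1.

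Rank order among the members was similar but not fixed. Across the 278 members, FPKM in green and yellow correlated with Spearman's rho = 0.76, a description across unigenes of the same libraries whose spread in ratio the 2-fold limit bounds. Ranked among themselves, 8 of the 10 highest in green were also among the 10 highest in yellow, and 42 of the 50 highest. The median shift in rank was 33 places, with quartiles of 14 and 64, and the largest was 145. Most members lie close together in level, so a ratio well inside the limits can move a member many places. The shift of 145 places was that of c25722_g1, whose log2 ratio of -0.97 was near the limit.

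The small shifts between the leaves were nearly balanced in number. Of the 278 members, 147 were higher in yellow and 131 lower. Their log2 ratios had a median of 0.06 and quartiles of -0.33 and 0.43. Over all 48181 unigenes that reached FPKM 1 in either library the median was 0.05, with wider quartiles of -0.52 and 0.73. The balance depends on the scaling of the libraries. TPM rescaling shifts the members' yellow-to-green log2 ratios by about -0.17, and upper-quartile scaling by about -0.29. With the same 278 members, 114 were then higher and 164 lower after TPM rescaling, and 99 and 179 after upper-quartile scaling.

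Most members were well inside the limits. Within 1.1-fold of equal FPKM lay 45 members (16.2%), within 1.2-fold 96 (34.5%) and within 1.5-fold 201 (72.3%). At 1.2-fold or more, 99 members were higher in yellow and 83 lower. At 1.5-fold or more, 36 members (12.9%) were higher in yellow and 41 (14.7%) lower. Over the 48181 unigenes of FPKM 1 or more, 29.3% were 1.5-fold or more higher in yellow, 23.1% were lower by as much and 47.7% lay within that limit. At 1.2-fold these shares were 40.9%, 34.1% and 25.0%. The members' counts at both limits are bounded by the 2-fold limit that chose them, so nothing is read from the contrast.

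The direction of the small shifts differed between ranges of level. Of the 29 members of mean FPKM 2000 or more, 9 were higher and 20 lower in yellow, with a median log2 ratio of -0.17. Of the 34 members from 1000 to 2000, 21 were higher and 13 lower, with a median of 0.36. From 500 to 1000 the numbers were 38 and 33, with a median of 0.06, and from 300 to 500 they were 79 and 65, also with a median of 0.06. The highest range leaned to green and the range below it to yellow. Under all 4 other scalings, with members and ranges kept as chosen on the deposited values, both leanings kept their direction. At 2000 or more, 7 were higher and 22 lower after TPM and after upper-quartile scaling. From 1000 to 2000, 20 were higher and 14 lower after TPM rescaling, with a median log2 ratio of 0.19. After upper-quartile scaling these numbers were 18 and 16, near balance, with a median of 0.07. In the 2 lower ranges more members were lower than higher under both of these scalings, and also without the most abundant yellow unigene. No error can be put on these numbers with 1 library per colour.

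**Figure D4:**
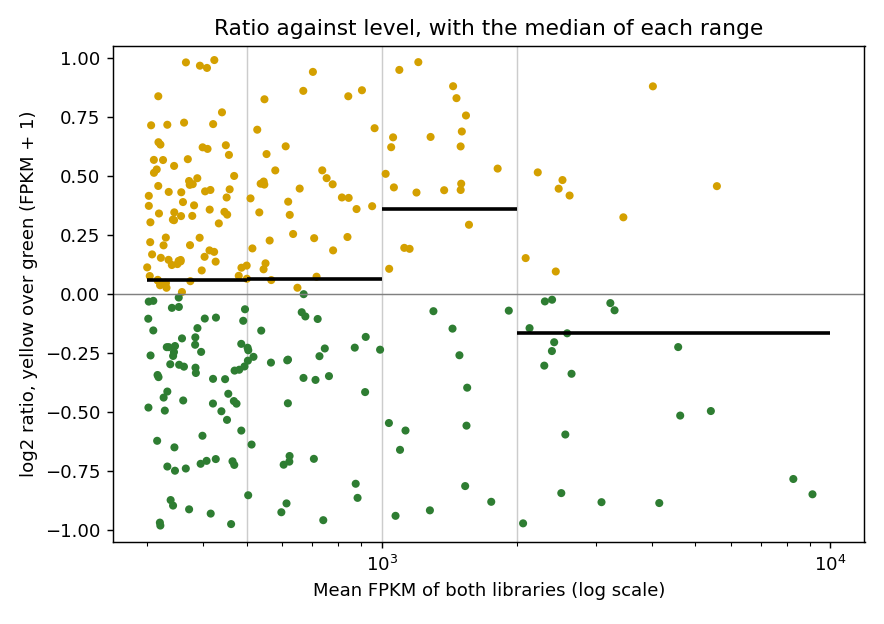
Log2 ratio of yellow over green on FPKM + 1 (y axis) against mean FPKM of both libraries (x axis, log scale) for the 278 members. Each point is a unigene, coloured by the library in which it was higher, and thick lines are the medians of the 4 ranges, 0.06, 0.06, 0.36 and -0.17 from left to right.

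Some very abundant members were all but equal, and the nearest to equality among the 63 members of mean FPKM 1000 or more are given here. Unigene c31365_g3 had 2417 FPKM in green and 2378 in yellow, a 1.02-fold difference. Unigene c24023_g1 had 2335 in green and 2286 in yellow, also 1.02-fold. Their ranks among all unigenes were 28 and 30 in green and 27 and 29 in yellow, so both kept their neighbourhood in the order.

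The members at the edges of the ratio limits spanned nearly the whole allowed range. Unigene c9993_g3 had 283 FPKM in green and 564 in yellow, giving a log2 ratio of 0.99, and c22643_g1 had 811 in green and 1602 in yellow, a ratio of 0.98. Unigene c33271_g1 had 426 in green and 216 in yellow, giving a log2 ratio of -0.98, and c25722_g1 had 612 in green and 311 in yellow, a ratio of -0.97. Just outside, the nearest unigenes had log2 ratios of 1.03 (1235 FPKM in green and 2521 in yellow) and -1.02 (692 in green and 341 in yellow). At the limit on level, the lowest member had a mean of 300.1 FPKM and the nearest unigene below it 299, which stood just under 300 in both libraries. Values run on without a gap across each limit, so a unigene's place on either side of it is not a difference in kind.

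Several of the unigenes share an assembly component, the number before _g in the identifier, within which the assembler groups related sequences. Reads can be divided among such unigenes if their sequences are alike, and the counting method is not given, so the split within a component is uncertain. The 278 members fell in 271 components. Of the members, 150 were alone in their component and 128 (46.0%) shared it with at least 1 other unigene. That share was 23.4% over all 61101 unigenes and 41.4% of the 70 unigenes of like level at or past 2-fold. It was 39.1% of the 1031 unigenes of mean FPKM 100 to 300 within 2-fold. The number after _g was 1 for 201 members (72.3%), against 84.8% over the whole table. It was 1 for 81.4% of the 70 at or past 2-fold and for 79.4% at mean FPKM 100 to 300. These features were not used in choosing the members, and the difference between the sets was not tested.

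In 7 components 2 unigenes were members, and none held more. In 5 of these 7 pairs the log2 ratios of the 2 unigenes differed by less than 0.1. The closest pair was c24654_g1, with 4005 FPKM in green and 2175 in yellow, and c24654_g2, with 2273 and 1236. The first was 1.76 times the second in both libraries, so both were lower in yellow by the same factor. In component c30898, c30898_g5 had 408 FPKM in green and 369 in yellow, giving a log2 ratio of -0.14 beside -0.22 for c30898_g3.

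A further 3 close pairs were higher in yellow. Unigene c24765_g2 had 994 FPKM in green and 1576 in yellow, and c24765_g1 had 827 and 1273, log2 ratios of 0.66 and 0.62. Unigene c32518_g5 had 1406 in green and 1724 in yellow, and c32518_g1 had 332 and 431, ratios of 0.29 and 0.38. Unigene c22878_g2 had 579 in green and 691 in yellow, and c22878_g1 had 480 and 549, ratios of 0.25 and 0.19. Within each of these pairs the balance between the unigenes was almost the same in both leaves.

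The other 2 pairs parted. In component c32539, c32539_g5 had 1016 FPKM in green and 1869 in yellow, giving a log2 ratio of 0.88. Its partner c32539_g2 had 438 in green and 239 in yellow, a ratio of -0.87. The first was 2.32 times the second in green and 7.82 times in yellow, and their log2 ratios were 1.75 apart. In component c23370, c23370_g1 had 670 FPKM in green and in yellow, while c23370_g2 had 343 in green and 464 in yellow, a ratio of 0.43. The unigene c32539_g5 was the higher of the pair in both leaves, by a wider margin in yellow.

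Another 281 unigenes outside the 278 shared a component with a member, in 117 components. All were below a mean of 300 FPKM, with a median of 4.18, and 14 were listed at 0 in both libraries. Members held most of the component's FPKM: the median share was 96.6% in green and 96.7% in yellow, and the lowest was 53.1% and 51.3%. Summed over the component, none of the 117 was at or past 2-fold. The large share and the summed ratios both follow largely from the choice of members at 300 FPKM or more and within 2-fold. The log2 ratio of the sum was within 0.1 of that of the most abundant member in 103 of the 117 components. In the others it differed by up to 0.41. In 5 of all 117 components the sum and that member lay on opposite sides of equal FPKM.

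The less abundant partners did not all stay within 2-fold. Of 241 partners with an FPKM of 1 or more in a library, 30 (12.4%) were higher in yellow by 2-fold or more, 33 (13.7%) were lower by as much and 178 (73.9%) lay within 2-fold. Over all unigenes of FPKM 1 or more, the shares were 20.0%, 15.0% and 65.0%. Of the 110 partners that reached FPKM 10, 13 (11.8%) were higher, 11 (10%) lower and 86 (78.2%) within 2-fold. Over the 14337 unigenes at that level the shares were 13.9%, 6.29% and 79.8%. At FPKM 10 the share within 2-fold was thus close to that of all unigenes, while the share lower was larger and the share higher smaller. No difference from the background was tested. The partners' median log2 ratio was 0.05 at FPKM 1 and 0.06 at FPKM 10. Of the 241 partners, 137 (56.8%) were on the same side of equal FPKM as the most abundant member of their component. Of the 110 that reached FPKM 10, 66 (60.0%) were. These sides depend on the scaling, and no link between partner and member was tested.

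**Figure D5:**
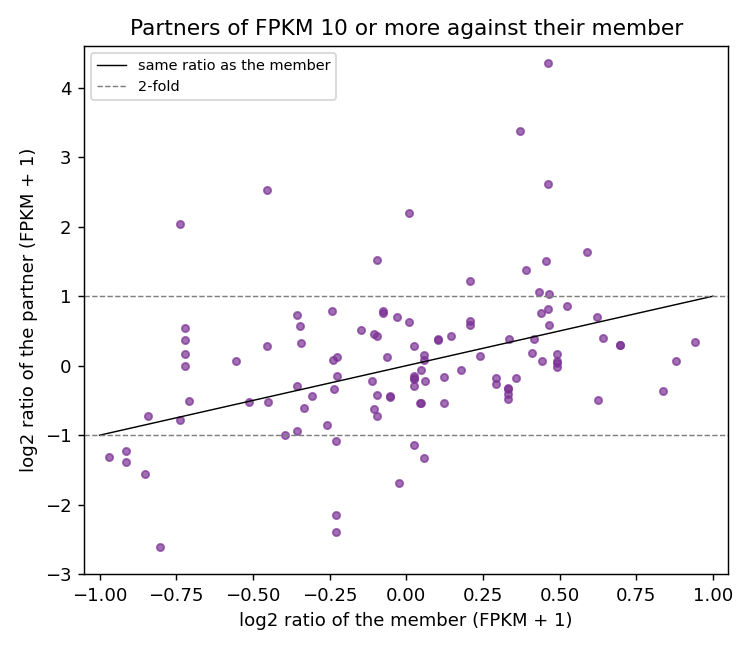
Log2 ratio of yellow over green on FPKM + 1 of the 110 partners of FPKM 10 or more (y axis) against that of the most abundant member of the same component (x axis). The solid line marks equal ratios and the dashed lines 2-fold, with 13 partners above and 11 below them.

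In 5 of the 117 components the member's share of the component differed by more than 10 percentage points between the leaves. The 4 partners named next were chosen after their values were seen, as the 2 highest and 2 lowest ratios in different components among those of FPKM 10 or more. Unigene c22733_g1 had 3.96 FPKM in green and 101 in yellow, giving a log2 ratio of 4.36, beside 0.46 for its member c22733_g3. Unigene c28939_g3 had 35.5 in green and 377 in yellow, a ratio of 3.37, beside 0.37 for c28939_g2. In both components the member's share was lower in yellow, 76.1% against 96.0% in green for c22733 and 73.8% against 95.7% for c28939.

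Among the partners lower in yellow, c29741_g6 had 60.4 FPKM in green and 9.10 in yellow, giving a log2 ratio of -2.60, beside -0.80 for its member c29741_g5. Unigene c32566_g7 had 278 in green and 52.4 in yellow, a ratio of -2.39, beside -0.23 for c32566_g2. The member's share in component c32566 was 69.7% in green and 89.7% in yellow. An abundant unigene within 2-fold could thus share its component with one several-fold apart between the leaves.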

How the data were processed

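Trizol extracts of leaf RNA gave 2 Illumina libraries, per the labels' protocols. CASAVA 1.7 appears in the submitters' processing notes, with no role given. Not given in the sources used here are the assembler, aligner, counting tool, filters and transcript lengths. Deposited by the authors was 1 table of FPKM values per unigene and library, per the file headers. FPKM is scaled to depth and length, so read numbers are unknown, no count model was used and no counting interval can be given. Column names contain the sample titles and were matched on them.

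Members were rows with a mean of 300 FPKM or more and a log2 ratio of yellow over green on FPKM + 1 between -1 and 1. They, and the ranges and lists, were chosen with earlier results of these data known. Named members are the 10 of highest mean and the 2 highest and 2 lowest ratios. The 2 nearest to equality at mean FPKM 1000 or more are also named. So are the members of the 3 components with most members, where 7 tied and all are given. The partners named were chosen after their values were seen, and the most abundant member of each one's component is named beside it. Trimmed-mean scaling used unigenes that reached FPKM 1 in both libraries and left out 30% of their log2 ratios at each end. Upper-quartile scaling used unigenes above 0 in either library. No sequence is printed, as none was used here. Calculations used Python 3.11.15, numpy 2.4.6 and pandas 2.3.3, with plots by matplotlib 3.10.9, and were tested on simulated data.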

Additional observations from a re-analysis of the deposited data

How the results depend on the processing

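Of 142 values recomputed under 16 alternatives, 4 of them chosen after seeing the data, 19 moved by more than 1.5-fold or, for log2 values and rho, by more than 0.1. Part of the 142 could not move, so the tally is no measure of stability. With the 278 members kept, multiplying a library by a constant leaves their number, shares, rho and shared components unchanged. The 1.5-fold mark is also wide: 147 members higher in yellow turning to 99 under upper-quartile scaling did not pass it. Lower or higher limits change the counts by construction. At a mean of 200 FPKM there were 498 members, 271 higher and 227 lower in yellow, and 47 shared a component with another member. At a mean of 500 these numbers were 134, 68, 66 and 6. Within 1.5-fold, the members' share of green was 17.2%, and 8 shared a component with another member. With upper-quartile scaling, 95 members were higher in yellow. The members' median log2 ratio was -0.046 with TPM and -0.15 with upper-quartile scaling. With the 278 members kept, it was -0.12 and -0.23. The partners' median was -0.11 and -0.18, and with the members kept -0.11 and -0.21. The sign of both medians is set by the scaling, which shifts the members' ratios almost alike. On FPKM + 1, ratios of partners of low FPKM shift less. Spearman's rho ran from 0.71 to 0.85, and the share of yellow from 15.5% to 28.0%. Sums over components leave no pairs or partners to count. No paired analysis was possible because each group has 1 library, and none could be left out. Unknown read numbers limit the partners of low FPKM most.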
